A study of Homo sapiens with 6 samples.

Results

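The saposin precursor PSAP and 7 other genes for lysosomal proteins, CTSD, CTSB, CTSL, LAMP1, LAMP2, GRN and NPC2, were followed in RNA from mitochondria of HepG2 cells, a hepatoblastoma-derived human liver cell line. The 8 genes were looked up by Ensembl identifier among the 57500 genes listed for each library. All 8 were listed for all 6 libraries, some of them with no count. They were chosen by gene name with the counts of these same libraries already known, so their levels and fold changes are given as descriptions, and nothing is read from counts of their calls. The wild-type cells had received DMSO vehicle alone (0 µM, control), or GenX at 10 µM or 100 µM, each for 48 h and with 2 libraries per dose. GenX is a short-chain perfluoroalkyl ether acid used in making fluoropolymers. Mitochondria were prepared with an isolation kit, RNA was extracted from them, and ribosomal RNA was depleted before stranded sequencing. All groups are 1 cell line, and nothing states that the replicates came from separate cultures, so the spread between replicates may be technical. In an RNA pool of this kind, fewer cells or organelles and less RNA per cell cannot be told apart.

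Lysosomal enzymes and their cofactors are made on the endoplasmic reticulum and carried through the Golgi, mostly by mannose 6-phosphate receptors, to acidic lysosomes. Prosaposin, the product of PSAP, is cut there into saposins A to D, small proteins that lift sphingolipids from membranes and present them to hydrolases. Many lysosomal genes carry the CLEAR element, a promoter sequence around the letters CACGTG that the transcription factor TFEB and its relatives bind. None of the 8 transcripts is encoded by mitochondrial DNA, so each was measured as a nuclear gene transcript present in the preparation.

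RefSeq promoter windows on build GRCh38.p14, from 250 bases before to 50 bases after the transcription start, were at hand for 5 of the 8 genes, with 2 windows for NPC2. The letters CACGTG, which read the same on both strands, were in the windows of LAMP1 and CTSD, 2 of the 5. They were in 37 of 146 other lysosomal pathway genes (25.3%) and in 8.77% of 27305 genes in the table. The longer TCACGTGA, which contains CACGTG, was in 1 of the 5 members, in 11.6% of the other lysosomal genes and in 1.18% of all genes. The LAMP1 window held CACGTG at 6 places, the 1 gene of 27305 with so many, and the CTSD window held it at 1 place, 41 bases before the start. GRN was the 1 member of the 5 with CACATG, searched on both strands, and had it at 2 places on 1 strand. CACATG was in 13.4% of all windows, and at 2 places on 1 strand in 0.912%. The stretches that hold these letters are shown because LAMP1 and CTSD differ in their number, with the letters named above in capitals. The LAMP1 stretch holds 4 of its 6 places. They run from chr13:113297037-113297112 on the plus strand for LAMP1, chr11:1763954-1763989 on the minus strand for CTSD and chr17:44345070-44345111 on the plus strand for GRN.
LAMP1: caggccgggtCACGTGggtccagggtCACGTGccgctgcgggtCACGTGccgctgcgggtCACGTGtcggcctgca
CTSD: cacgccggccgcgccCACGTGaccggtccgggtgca
GRN: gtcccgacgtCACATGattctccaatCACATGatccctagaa

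The libraries differed greatly in depth. Total counts were 240683 and 60854 in vehicle controls, 43556 and 29350 with 10 µM GenX, and 2141282 and 1338397 with 100 µM GenX. Counts on nuclear genes were 230210 and 54502 in vehicle controls, 24505 and 11406 with 10 µM GenX, and 2064527 and 1293961 with 100 µM GenX, a 181-fold range. Genes of mitochondrial DNA took 4.35% and 10.4% of all counts in vehicle controls, 43.7% and 61.1% with 10 µM GenX, and 3.58% and 3.32% with 100 µM GenX. Levels are therefore given as nuclear CPM, which scales the counts of each library to the same total over nuclear genes, where a gene at 0 lies below the level of 3 counts. That level was 13.03 and 55.0 nuclear CPM in vehicle controls, 122 and 263 with 10 µM GenX, and 1.45 and 2.32 with 100 µM GenX. Intervals and these limits cover counting error only. The nuclear-retained RNA MALAT1 took 14.1% and 5.15% of nuclear counts in vehicle controls, 0.0694% and 0.114% with 10 µM GenX, and 2.99% and 2.69% with 100 µM GenX. A list of 16 hepatocyte and HepG2 markers took 0.954% and 1.79% in vehicle controls, 0.0898% and 0.132% with 10 µM GenX, and 1.52% and 1.51% with 100 µM GenX. Its members APOA2 and GPC3 were counted in every library, while FGA and CYP3A7 were at 0 in all 6. The 8 macrophage markers together took 0.0321% and 0.0147% in vehicle controls, 0.00816% and 0.0351% with 10 µM GenX, and 0.00339% and 0.00765% with 100 µM GenX. Of them, PTPRC, CSF1R, CD163, MARCO and FCGR3A were at 0 in all libraries, LYZ was counted in all 6, and CD14 and AIF1 were counted at 100 µM. The part of depth, MALAT1 and the marker genes in the values that follow was not tested.

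Together the 8 genes made up 0.338% of nuclear counts in control replicate 1 (exact 95% binomial interval 0.315 to 0.363%) and 0.508% in control replicate 2 (0.450 to 0.572%). Their share was 0.0775% (0.0467 to 0.121%) and 0.0526% (0.0193 to 0.114%) at 10 µM, on 19 and 6 counts. It was 0.542% (0.532 to 0.552%) and 0.652% (0.638 to 0.666%) at 100 µM, on 11185 and 8437 counts. The 10 µM libraries lay below both controls. The 100 µM libraries lay above both controls, and above control replicate 2 by less than the gap between the controls. The mean share was 0.423 ± 0.120% in vehicle controls, 0.0651 ± 0.0176% with 10 µM GenX, and 0.597 ± 0.0780% with 100 µM GenX (SD, n = 2 each). With MALAT1 and NEAT1 left out of the nuclear total, the share was 0.395% and 0.541% in vehicle controls, 0.0776% and 0.0527% with 10 µM GenX, and 0.561% and 0.673% with 100 µM GenX. All 8 genes were detected in each control and each 100 µM library, but 5 in 10 µM replicate 1 and 2 in 10 µM replicate 2.

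**Figure D1:**
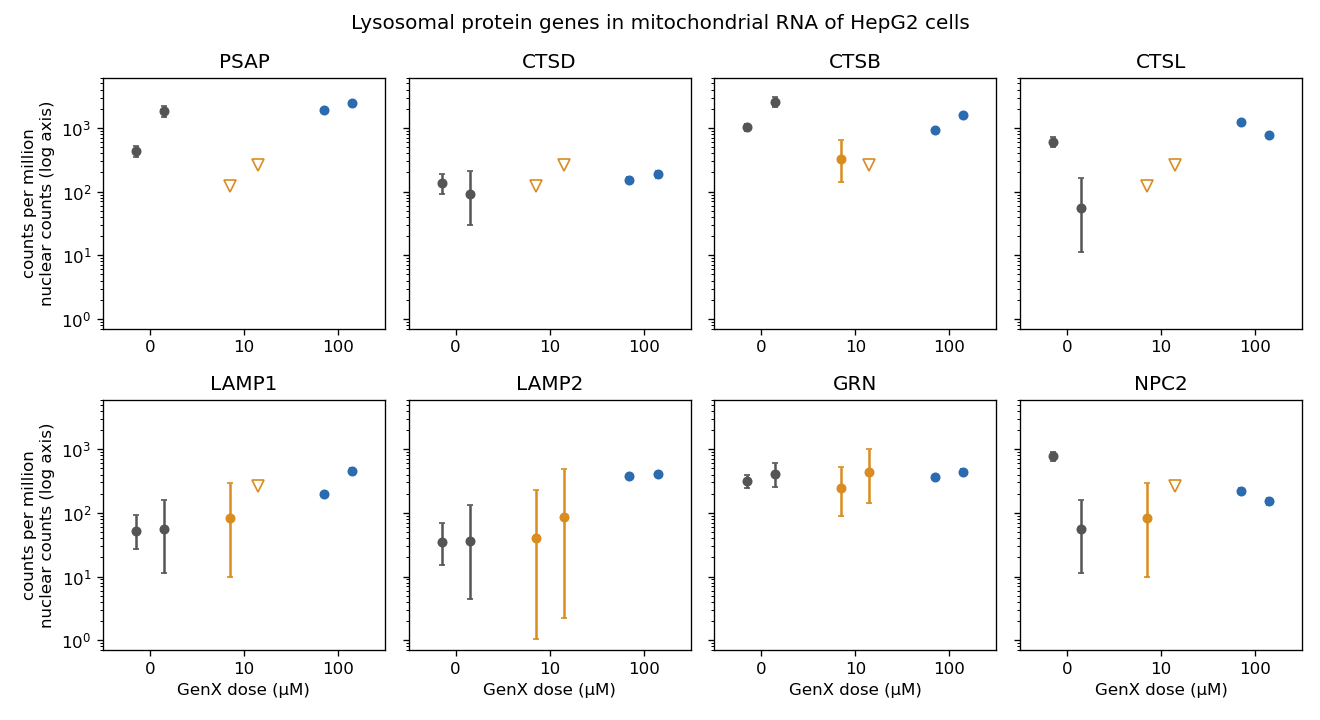
Level of each of the 8 genes in nuclear CPM (log axis) by GenX dose in µM, 1 symbol per library. Filled points carry exact 95% counting intervals, and open triangles mark the level of 3 counts where a gene had no count; PSAP, CTSD and CTSL have no filled point at 10 µM.

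PSAP (ENSG00000197746, chromosome 10, 71816298 to 71851375, minus strand, GRCh38) had 100 counts in each control, 0 in both 10 µM libraries, and 3963 and 3239 at 100 µM. In nuclear CPM this was 434 and 1835 in vehicle controls, below 122 and below 263 with 10 µM GenX, and 1920 and 2503 with 100 µM GenX. The 10 µM limits lay under both controls, and both 100 µM values lay above both controls, though only just above control replicate 2. At the pooled control share, 25.2 PSAP counts would have fallen in the 10 µM libraries, 15.6 at the share of control replicate 1 and 65.9 at that of control replicate 2. Against the pooled controls PSAP was at least 8.41-fold lower at 10 µM, taking 3 counts over both libraries as the limit and the control counts as measured. With counting error in both groups the exact 95% limit was 6.78-fold. At 100 µM it was 3.05 times the pooled control level (exact 95% counting interval 2.65 to 3.53). That ratio was 4.94 against control replicate 1 and 1.17 (0.959 to 1.44) against control replicate 2, so it rests on the first control. PSAP was at least 25.7-fold higher at 100 µM than at 10 µM, with an exact limit of 20.9-fold.

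The 3 cathepsins are proteases that are activated in the acid of the lysosome: CTSD is an aspartic protease that also cuts prosaposin, and CTSB and CTSL are cysteine proteases. CTSD (ENSG00000117984, chromosome 11, 1752752 to 1764573, minus strand) had 31 and 5 counts in vehicle controls, 0 and 0 with 10 µM GenX, and 318 and 243 with 100 µM GenX. Vehicle controls had 135 and 91.7 nuclear CPM of CTSD, and the 100 µM libraries had 154 and 187.8. The limits of 122 and 263 nuclear CPM at 10 µM are about as high as the control levels, so a lower CTSD level there was barely detectable at this depth. Only 4.54 CTSD counts would have fallen at 10 µM at the pooled control share, and the bound is at least 1.51-fold lower, with an exact limit of 1.17-fold. CTSD shares 1304 exon bases with a same-strand gene, ENSG00000250644, and 493 with the antisense gene PRADX, both at 0 in every library.

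CTSB (ENSG00000164733, chromosome 8, 11842524 to 11869448, minus strand) had 238 and 139 counts in vehicle controls, 8 and 0 with 10 µM GenX, and 1940 and 2065 with 100 µM GenX. The levels were 1034 and 2550 nuclear CPM in vehicle controls, 326 and below 263 with 10 µM GenX, and 939.7 and 1596 with 100 µM GenX. Both 10 µM libraries lay below both controls, whereas the 100 µM and control libraries overlapped. The 8 counts at 10 µM stood beside 47.6 at the pooled control share, and beside 37.1 and 91.6 at the share of each control. CTSB was 5.94-fold lower at 10 µM than in the pooled controls (2.99 to 13.9), and the 100 µM level was 0.901 times that of the controls.

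CTSL (ENSG00000135047, chromosome 9, 87725519 to 87731393, plus strand) had 139 and 3 counts in vehicle controls, 0 and 0 with 10 µM GenX, and 2561 and 1003 with 100 µM GenX. Its nuclear CPM was 604 and 55.0 in vehicle controls, below 122 and below 263 with 10 µM GenX, and 1240.5 and 775 with 100 µM GenX. The controls differed 10.97-fold from each other, more than the 100 µM libraries did from control replicate 1. CTSL was at least 5.97-fold lower at 10 µM than in the pooled controls (exact limit 4.79-fold), but control replicate 2 alone would have given 1.98 counts there. At 100 µM it was 1.76 times the level of control replicate 1 and 19.3 times that of control replicate 2 (6.59 to 93.5), which rests on 3 counts.

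LAMP1 and LAMP2 are heavily glycosylated proteins that line the inner face of the lysosomal membrane, and LAMP2 also serves in chaperone-mediated autophagy. LAMP1 (ENSG00000185896, chromosome 13, 113297241 to 113323672, plus strand) had 12 and 3 counts in vehicle controls, 2 and 0 with 10 µM GenX, and 403 and 598 with 100 µM GenX. LAMP2 (ENSG00000005893, chromosome X, 120427827 to 120469365, minus strand) had 8 and 2 counts in vehicle controls, 1 and 1 with 10 µM GenX, and 796 and 520 with 100 µM GenX. The controls lay close together, at 52.1 and 55.0 nuclear CPM for LAMP1 and at 34.8 and 36.7 for LAMP2, on few counts. At 10 µM LAMP1 had 81.6 and below 263 nuclear CPM, and LAMP2 had 40.8 and 87.7, on 1 count in each library. At 100 µM LAMP1 had 195 and 462 nuclear CPM and LAMP2 386 and 402, above both controls for each gene. The 100 µM level was 5.66 times the pooled control level for LAMP1 (3.41 to 10.1). It was 11.2 times the pooled control level for LAMP2 (6.05 to 23.3), the highest ratio among the 8 genes. The 2 counts of each gene at 10 µM stood beside 1.89 for LAMP1 and 1.26 for LAMP2 at the pooled control share, so the depth at 10 µM could not have shown a lower level of either. The 10 µM to control ratio was 1.06 for LAMP1 (0.117 to 4.55) and 1.59 for LAMP2 (0.169 to 7.44).

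GRN and NPC2 encode soluble proteins of the lysosome. GRN encodes progranulin, which is also secreted, binds prosaposin, and is cut into granulins in lysosomes. GRN (ENSG00000030582, chromosome 17, 44345086 to 44353102, plus strand) had 73 and 22 counts in vehicle controls, 6 and 5 with 10 µM GenX, and 748 and 573 with 100 µM GenX. It had 317 and 404 nuclear CPM in vehicle controls, 245 and 438 with 10 µM GenX, and 362 and 443 with 100 µM GenX, and the 3 doses overlapped. GRN was the 1 member above 3 counts in both 10 µM libraries, with 11 counts beside 11.98 at the pooled control share. The 10 µM level was 0.918 times that of the pooled controls (0.443 to 1.72), and the 100 µM level was 1.28 times that at 10 µM (0.715 to 2.58). These intervals hold both an unchanged level and a moderate change in either direction.

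NPC2 binds cholesterol and hands it to NPC1 in the lysosomal membrane. NPC2 (ENSG00000119655, chromosome 14, 74476192 to 74494177, minus strand) had 177 and 3 counts in vehicle controls, 2 and 0 with 10 µM GenX, and 456 and 196 with 100 µM GenX. Its nuclear CPM was 769 and 55.0 in vehicle controls, 81.6 and below 263 with 10 µM GenX, and 221 and 151 with 100 µM GenX. The controls differed 14.0-fold and enclosed both 100 µM values. The 100 µM level was 0.252 times that of control replicate 1 and 3.53 times that of control replicate 2 (1.20 to 17.1, on 3 counts). At 10 µM NPC2 was 11.4-fold lower than in the pooled controls (3.10 to 94.5), which rests on control replicate 1: the 2 counts at 10 µM stood beside 27.6 at its share and 1.98 at that of control replicate 2. NPC2 shares 103 exon bases with the opposite-strand gene ISCA2, at 0 in every library.

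**Figure D2:**
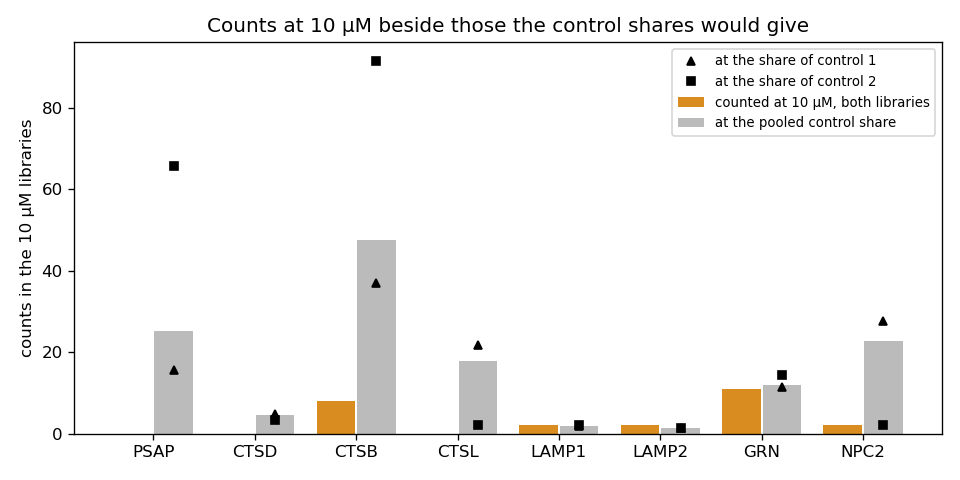
Counts of the 8 genes in both 10 µM libraries together (orange bars), beside the counts that the pooled control share of nuclear counts would have given (grey bars) and those at the share of each control alone (triangle and square). PSAP had 0 against 15.6 to 65.9 and CTSB 8 against 37.1 to 91.6, while GRN had 11 against 11.4 to 14.5.

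Comparing 10 µM with control over all genes, edgeR's quasi-likelihood test called 19 of 3180 genes (0.597%) at a Benjamini-Hochberg adjusted p under 0.05. All 8 members passed the filter on low counts, and 0 of 8 were called, with 4 at an unadjusted p under 0.05 (895 of all 3180 genes) and 2 called by DESeq2 (526 of all genes). The fitted log2 fold change on the TMM scale had a median of -4.27 for the 8 members and of -3.18 for all genes tested. Fitted values were -4.16 ± 1.48 (SE) for CTSB, -4.38 ± 2.05 for NPC2, -1.36 ± 1.35 for GRN, -1.20 ± 1.84 for LAMP1 and -0.53 ± 1.74 for LAMP2. The fitted values of PSAP, CTSD and CTSL depend on the prior count, since these genes had no count at 10 µM. On this scale LAMP1 and LAMP2 are below 0, whereas their ratios of nuclear shares above lie at or over 1, so no direction is given for either. From pooled shares of nuclear counts, with such genes at their bound, the median log2 ratio was -1.58 for the 8 members and 0.08 for the 2725 nuclear genes that allowed a ratio. At the bound were 3 of the 8 members and 1105 of the 2725 nuclear genes. Such a gene enters at 3 counts whatever its level, so the gap between these medians is not read as a difference in level. PSAP, CTSD, CTSB and CTSL, 4 of 8, lay lower in both 10 µM libraries than in both controls, as did 32% of 3145 nuclear genes tested. For CTSD, and for CTSL against control replicate 2, this rests on zeros whose limits lie about at or above the control level. LAMP2 lay higher on 1 count per library, as did 11.1% of nuclear genes. A total of 3 of 8 members had no count in either 10 µM library, beside 40.9% of nuclear genes tested.

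Comparing 100 µM with control, edgeR called 0 of 3180 genes (0%), with 573 at an unadjusted p under 0.05. DESeq2 called 220 on the same genes, and 3 without the filter on low counts. Of the 8 members 0 were called by either tool, and 0 had an unadjusted p under 0.05. The fitted log2 fold change was 2.87 ± 1.55 (SE) for LAMP2, 2.04 ± 1.60 for LAMP1, 0.79 ± 1.49 for CTSL and 0.61 ± 1.08 for PSAP. It was -0.05 ± 1.38 for CTSD, -0.37 ± 1.28 for GRN, -0.92 ± 1.26 for CTSB and -1.97 ± 1.68 for NPC2. The median of the members was 0.28, beside 0.35 for all genes tested; the pooled ratios had a median log2 of 0.75 for the members and 1.04 for nuclear genes. PSAP, CTSD, CTSL, LAMP1 and LAMP2, 5 of 8, lay higher in both 100 µM libraries than in both controls, beside 48.3% of nuclear genes. With DESeq2 size factors the median of all genes was -0.05 and with library sizes alone 1.02, and 4 and 6 of the 8 members were then above 0. The fitted sign at 100 µM against control was the same in 5 of 14 alternatives for CTSD and in 9 of 15 for GRN, and the ratios of pooled nuclear shares, 1.32 for CTSD and 1.18 for GRN, had the other sign. NPC2 was fitted at 2.12 without control replicate 1, and CTSB at 0.15 with the filter at a mean of 5 CPM. PSAP, CTSL, LAMP1 and LAMP2 stayed above 0 in all 15 alternatives.

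Comparing 100 µM with 10 µM, edgeR called 91 of 3180 genes (2.86%), and 24 of them (0.755%) were higher at 100 µM. PSAP was the 1 member called, and it was higher at 100 µM; its choice used these same libraries, so nothing is read from the call. At an unadjusted p under 0.05 there were 4 members and 1150 of all 3180 genes, and DESeq2 called 2 members, PSAP and CTSL, and 374 genes in all. The fitted log2 fold change was 3.23 ± 1.42 for CTSB, 3.24 ± 1.83 for LAMP1, 3.40 ± 1.71 for LAMP2, 2.41 ± 1.97 for NPC2 and 0.99 ± 1.33 for GRN. The members' median was 3.32, beside 3.52 for all genes tested, and from pooled ratios the median log2 was 2.42 beside 0.64 for nuclear genes. At the bound were 3 of the 8 members and 1318 of 3141 nuclear genes, so the pooled medians depend on it and are not levels. All members but GRN, 7 of 8, had more nuclear CPM in both 100 µM libraries than in both 10 µM libraries, with zeros taken as 0, beside 63.8% of nuclear genes. CTSD, NPC2 and LAMP1 had no count in 10 µM replicate 2, where the limit was 263 nuclear CPM. Both 100 µM values of CTSD and NPC2 lay under that limit. LAMP1 lay under it in 100 µM replicate 1 (195 nuclear CPM) and above it in 100 µM replicate 2 (462). A higher level in both 100 µM libraries was thus not shown against 10 µM replicate 2 for any of these genes. CTSL was at least 12.7-fold higher (exact limit 10.3-fold) and CTSD at least 2.00-fold higher (exact limit 1.62-fold), while CTSB was 5.35 times as high (2.71 to 12.4). LAMP1 was 5.35 times as high (1.48 to 44.3), LAMP2 7.04 times (1.94 to 58.2) and NPC2 3.49 times (0.961 to 28.8), each on 2 counts at 10 µM. The comparisons share libraries, so these values are not independent of those against control.

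Per length of exon the order of the genes differed between doses. At 100 µM the mean level was 683 nuclear CPM per kb for PSAP, 426 for CTSL, 171 for CTSB and 109 for GRN. Each of these 4 lay above the next in both libraries. LAMP2 at 71.2, NPC2 at 67.7, LAMP1 at 57.3 and CTSD at 54.7 followed, and these neighbours were not separated from each other. In the controls PSAP stood at 350 nuclear CPM per kb, CTSB at 241, NPC2 at 149.9, CTSL at 139 and GRN at 97.9, with ranges that overlapped from each to the next. CTSD at 36.2, LAMP1 at 9.34 and LAMP2 at 6.46 had lower means, each separated from its neighbour in the order. The range of CTSD lay within those of NPC2 and CTSL, which were below it in control replicate 2. At 10 µM GRN was highest, at 92.8 nuclear CPM per kb. As a share of the 8 genes' own counts, PSAP took 12.9% and 36.1% in vehicle controls, 0% and 0% with 10 µM GenX, and 35.4% and 38.4% with 100 µM GenX.

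**Figure D3:**
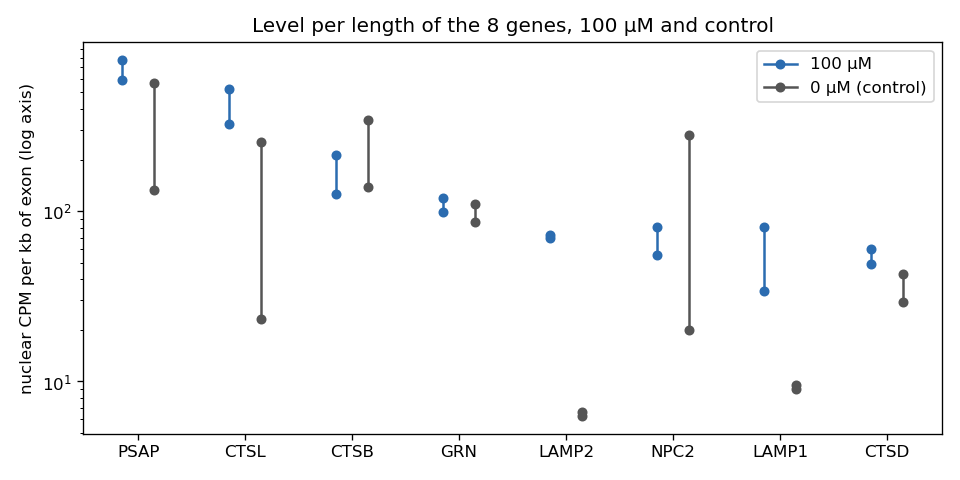
Level per kb of exon for each of the 8 genes (nuclear CPM per kb, log axis), with the 2 libraries of each group joined by a line, 100 µM in blue and control in grey. The 100 µM points of PSAP, CTSL, CTSB and GRN do not overlap their neighbours in the order, and the control points of CTSL and NPC2 are the farthest apart.

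Over the 6 libraries, the genes with the pattern most like that of PSAP were TM4SF1, AKR1B1, APOA2, RPL18 and ENO2, with Pearson r on log2 nuclear CPM of 0.999 for TM4SF1 and 0.998 for the other four. They were ranked among 1701 protein-coding nuclear genes with a mean of at least 100 nuclear CPM, and the points share library depth. TM4SF1 had 34 and 22 counts in vehicle controls, 0 and 0 with 10 µM GenX, and 1183 and 739 with 100 µM GenX. None of the 5 is a lysosomal gene by the lists used here. Of the other members CTSL ranked 256th with r = 0.899, CTSB 484th with r = 0.788 and GRN 990th with r = 0.404, while CTSD fell under the minimum level.

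The wider lysosomal pathway was followed with 188 other genes in 9 lists, of which 76 passed the filter on low counts. Their summed share of nuclear counts was 1.60% and 1.09% in vehicle controls, 1.29% and 1.34% with 10 µM GenX, and 2.42% and 2.25% with 100 µM GenX. The 10 µM values lay between the controls, unlike those of the 8 members, and the 100 µM values lay above both controls. The 8 members had 17.4% and 31.7% of the counts of all these lysosomal genes in vehicle controls, 5.65% and 3.77% with 10 µM GenX, and 18.3% and 22.5% with 100 µM GenX. Of the 76 genes, edgeR called 0 in each of the 3 comparisons. At an unadjusted p under 0.05, 10 µM against control gave 1 higher and 13 lower, beside 895 of all 3180 genes in either direction. The comparison of 100 µM with control gave 8 higher and 1 lower, beside 573 genes, and that of 100 µM with 10 µM gave 21 higher, beside 1150 genes. DESeq2 called 1 higher and 6 lower for 10 µM against control, 3 higher and 2 lower for 100 µM against control, and 2 higher and 1 lower for 100 µM against 10 µM, beside 526, 220 and 374 of all genes in these comparisons. The median fitted log2 fold change of the 76 was -1.86 for 10 µM against control, 1.00 for 100 µM against control and 2.80 for 100 µM against 10 µM. From pooled shares with genes at 0 at their bound, the median log2 ratio was -0.01 for 10 µM against control, 1.77 for 100 µM against control and 0.81 for 100 µM against 10 µM. At 10 µM against control 19 of 65 ratios were at the bound, and at 100 µM against 10 µM 25 of 76. At 100 µM against control it was 3 of 76. The pooled medians of the comparisons that involve 10 µM thus depend on the bound and are not levels. At 10 µM 25 of the 76 had no count, beside 40.9% of nuclear genes tested, and 20 lay below both controls, beside 32%.

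**Figure D4:**
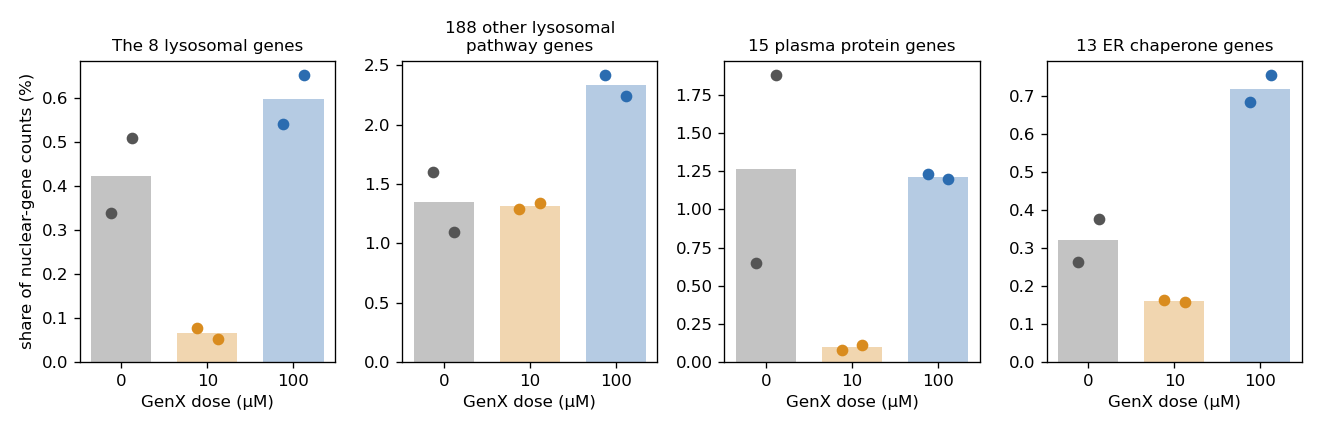
Share of nuclear-gene counts (%) by GenX dose in µM for the 8 genes, 188 other lysosomal pathway genes, 15 plasma protein genes and 13 endoplasmic reticulum (ER) chaperone genes. Bars are means and points are the 2 libraries of a dose. The 8 genes and the plasma proteins had their lowest share at 10 µM, while the wider lysosomal genes at 10 µM lay between the controls.

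Within those lists the 2 most abundant tested genes of each are given, since none passed the threshold; over the 17 genes so named the edgeR adjusted p ran from 0.124 to 1 at 10 µM against control. It ran from 0.218 to 0.877 at 100 µM against control and from 0.104 to 0.837 at 100 µM against 10 µM. Among proteases (5 of 13 tested), CTSA, a carboxypeptidase that protects NEU1, had 43 and 5 counts in vehicle controls, 0 and 1 with 10 µM GenX, and 1450 and 766 with 100 µM GenX. CTSH, an aminopeptidase, had 89 and 2 counts in vehicle controls, 0 and 1 with 10 µM GenX, and 232 and 146 with 100 µM GenX. Among glycosidases, lipases and sulfatases (13 of 38 tested), the sialidase NEU1 had 190 and 2 counts in vehicle controls, 0 and 0 with 10 µM GenX, and 858 and 834 with 100 µM GenX. HEXA, a subunit of the hexosaminidase that degrades GM2 ganglioside, had 93 and 8 counts in vehicle controls, 1 and 0 with 10 µM GenX, and 1373 and 808 with 100 µM GenX. As with CTSL and NPC2, the controls lay far apart, at 825 and 36.7 nuclear CPM for NEU1 and at 387 and 36.7 for CTSH.

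Among partners of the saposins (5 of 14 tested), LRP1, an endocytic receptor that takes up prosaposin, had 38 and 15 counts in vehicle controls, 49 and 0 with 10 µM GenX, and 181 and 170 with 100 µM GenX. SURF4, a cargo receptor that exports prosaposin from the endoplasmic reticulum, had 18 and 0 counts in vehicle controls, 0 and 1 with 10 µM GenX, and 1140 and 576 with 100 µM GenX. Among membrane proteins (7 of 30 tested), the tetraspanin CD63 had 86 and 9 counts in vehicle controls, 3 and 5 with 10 µM GenX, and 1833 and 1434 with 100 µM GenX, and its fitted log2 change at 100 µM against control was 1.19 ± 1.29. LAPTM4A, another lysosomal membrane protein, had 4 and 24 counts in vehicle controls, 2 and 11 with 10 µM GenX, and 1079 and 443 with 100 µM GenX. It was fitted at -0.02 ± 1.67 at 10 µM against control and at 0.70 ± 1.62 at 100 µM against control. The vacuolar ATPase acidifies the lysosome, and 13 of its 17 listed subunits were tested. ATP6V0B had 4 and 1 counts in vehicle controls, 21 and 0 with 10 µM GenX, and 530 and 306 with 100 µM GenX, and ATP6V0E1 had 95 and 0 in vehicle controls, 1 and 1 with 10 µM GenX, and 1664 and 749 with 100 µM GenX.

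Among sorting genes (11 of 30 tested), the retromer subunit VPS35 had 79 and 67 counts in vehicle controls, 0 and 3 with 10 µM GenX, and 469 and 256 with 100 µM GenX. The adaptor subunit AP3D1 had 160 and 0 counts in vehicle controls, 1 and 2 with 10 µM GenX, and 474 and 483 with 100 µM GenX. Among regulators and nutrient sensors (8 of 22 tested), FNIP1, a partner of folliculin, had 683 and 2 counts in vehicle controls, 0 and 0 with 10 µM GenX, and 1114 and 526 with 100 µM GenX. LAMTOR5, a subunit of the Ragulator complex, had 5 and 7 counts in vehicle controls, 0 and 2 with 10 µM GenX, and 3857 and 1940 with 100 µM GenX, fitted at 4.22 ± 1.57 at 100 µM against control. Among autophagy genes (15 of 27 tested), the mitophagy receptor BNIP3L had 21 and 52 counts in vehicle controls, 1 and 1 with 10 µM GenX, and 3553 and 1728 with 100 µM GenX. Its relative BNIP3 had 110 and 3 in vehicle controls, 3 and 0 with 10 µM GenX, and 3907 and 1737 with 100 µM GenX. The 1 tested inhibitor of lysosomal cysteine proteases, cystatin C (CST3), had 86 and 32 counts in vehicle controls, 0 and 0 with 10 µM GenX, and 469 and 402 with 100 µM GenX.

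Transcripts of other proteins made on the endoplasmic reticulum were set beside the members. The 15 plasma protein genes took 0.647% and 1.88% of nuclear counts in vehicle controls, 0.0775% and 0.114% with 10 µM GenX, and 1.23% and 1.20% with 100 µM GenX. The 13 endoplasmic reticulum chaperone genes took 0.264% and 0.376% in vehicle controls, 0.163% and 0.158% with 10 µM GenX, and 0.683% and 0.754% with 100 µM GenX. In summed share both lists lay below the controls at 10 µM, as the 8 lysosomal genes did. The chaperones also lay above both controls at 100 µM. The chaperone HSPA5 had 490 and 438 nuclear CPM with 10 µM GenX, against 56.5 and 55.0 in vehicle controls. These values rest on few counts, 12 and 5 with 10 µM GenX and 13 and 3 in vehicle controls. Of 8 chaperones with a pooled ratio at 10 µM against control, 3 lay above control and 5 below. Such ratios were taken only over genes that passed the filter on low counts, as 7 of the 15 plasma protein genes did. All 7 lay below. Genes that did not pass went both ways. FGG had 0 and 8 counts with 10 µM GenX against 1 and 0 in vehicle controls, and FGB had 4 and 0 against 0 and 0. AHSG had 0 and 0 against 14 and 112, and APOH had 0 and 0 against 0 and 80. P4HB gave 24 of 40 chaperone counts in 10 µM replicate 1, and FGG 8 of 13 plasma protein counts in 10 µM replicate 2.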

How the data were processed

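The authors deposited unnormalized read counts for each gene, 1 table per library, in the layout of featureCounts, per the file headers. Per the submitters' processing notes FastQC, STAR, featureCounts, DESeq2 and build GRCh38 were used. Not given in the sources used here are tool versions, annotation, strand setting and how shared or multi-mapping reads were counted, each of which can change counts of overlapping genes. Symbols came from GENCODE v29 (56410 of 57500 identifiers matched). Groups and replicate numbers came from sample titles, and the labels put all libraries in batch 1. The members and gene lists were chosen with earlier results of these data known.

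Nuclear CPM and shares were computed over genes not on mitochondrial DNA, per kb where stated by the deposited exon length, which is in bases and is a value of the gene in the authors' tables. Exact binomial and counting intervals are 95%, and a gene at 0 was set below 3 counts. In edgeR 4.0.16 (R 4.3.3), filterByExpr kept 3180 genes. TMM scaling and robust quasi-likelihood fits of all 6 libraries gave 3 two-sided comparisons, adjusted by Benjamini-Hochberg at 0.05 over all genes. The steps were checked on simulated counts. DESeq2 1.42.0, other scalings, filters, a replicate block and leaving out each library were alternatives. Medians and counts of pooled ratios were taken over genes that passed the filter on low counts, without those at or under 3 counts in both groups. Named were all members and, per list, up to 3 genes past the threshold or else the 2 most abundant. Replicates differed beyond sampling noise in every group, with chi-square per degree of freedom of 39.4, 12.9 and 35.2 from low to high dose. A planned comparison of protein sequences was not run.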

Additional observations from a re-analysis of the deposited data

How the results depend on the processing

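Depth at 10 µM limited what could be seen: 4.54 CTSD, 1.89 LAMP1 and 1.26 LAMP2 counts would have fallen there at the pooled control share. Genes called at 10 µM against control numbered 19, but 7 with library sizes alone, 526 with DESeq2, 7 with no filter on low counts, 95 with a mean of at least 5 CPM, 206 with the 4 libraries compared alone and 75 with a replicate block. Of the 19, 7 were higher and 12 lower, against 8 and 7 with DESeq2 size factors and 0 and 7 with library sizes alone. Leaving out 1 library gave 4 to 861, the highest without control replicate 2 and the lowest without 10 µM replicate 1. At 100 µM against control the count was 0, but 4 with DESeq2 size factors, 220 with DESeq2, 3 with DESeq2 unfiltered and 22 with the block, and 0 to 204 with 1 library left out, the highest without control replicate 2. At 100 µM against 10 µM it was 91, but 374 with DESeq2, 503 with DESeq2 unfiltered, 3 with no filter, 291 with a mean of at least 5 CPM and 258 with the 4 libraries compared alone, and 16 to 1272 with 1 library left out. Of the 91, 24 were higher and 67 lower, against 6 and 73 with DESeq2 size factors, 9 and 494 with DESeq2 unfiltered, 201 and 90 at a mean of at least 5 CPM, and 158 and 100 with the 4 libraries compared alone. The unfiltered DESeq2 fit was chosen after seeing the data. The cause of these shifts was not tested.

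PSAP was called at 100 µM against 10 µM in 9 of 15 alternatives, and not with DESeq2 size factors, DESeq2 unfiltered or no filter on low counts, nor without 10 µM replicate 1, 100 µM replicate 1 or 100 µM replicate 2; nothing is read from this call. It was the 1 member value called in the main fit. PSAP stayed above 0 there in all 15 alternatives, which its lack of counts at 10 µM fixed in advance. Fits with 2 libraries in each group also called PSAP at 10 µM against control in several settings. These were DESeq2, a mean of at least 5 CPM, the 4 libraries compared alone and the replicate block. DESeq2 called CTSL there too, and nothing is read from these calls. At 100 µM against 10 µM the fitted GRN value was above 0 in 13 of 15 alternatives. The 10 µM share of the 8 genes was 0.0320% of all counts in place of 0.0651% of nuclear counts, and the 100 µM share was 0.376% without PSAP in place of 0.597%.

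Deviations of same-numbered replicates correlated at 0.00033 (10 µM and control), 0.0032 (100 µM and control) and -0.022 (100 µM and 10 µM). With 2 libraries per dose, and 40.9% of nuclear genes tested without a count at 10 µM, these values cannot tell whether same-numbered libraries were paired.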
